A study of Mus musculus with 36 samples.

Results

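Acute phase proteins are secreted proteins whose amount in blood changes during inflammation, and white fat makes several of them beside the liver. The genes described here are Hp, Wfdc21, Lbp, Serpina3n, Orm1, Saa3, Lcn2 and Cp, chosen by name from the probes of the arrays and not by their values. They are 8 of 27595 gene names on the array, each with 1 probe, and all 8 probes passed the filter on signal that left 16499 genes for testing. The files write Wfdc21 under its older name 1100001G20Rik. All samples were epididymal white adipose tissue of adult male C57BL/6J mice, 12 per group and 1 array per animal. All 3 groups first had 3 weeks of free access to a purified diet in which fat supplied 30% of the energy. The t=0 animals were killed then, with no further feeding. The HF-AL animals stayed on that diet without restriction for 12 more weeks. The HF-DR animals were fed it for the same 12 weeks on a ration that the labels give as 70 energy percent, with vitamins and minerals added so that their intake equalled that of the unrestricted animals. No group ate a low-fat diet, so the effect of the fat content itself is not part of these comparisons. The RNA of each animal, in the dye Cy5, was set against a pool of all samples in Cy3, so that each level below is the log2 ratio between an animal and the pool, and a difference is one between the means of 2 groups.

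In the liver, interleukin 6 acts through the transcription factor STAT3, and interleukin 1 and tumour necrosis factor act through NF-kB and C/EBP factors, to switch on acute phase genes. Fat cells use the same signals, and Hp, Lcn2, Saa3, Orm1 and Serpina3n are among the genes known to be made by adipocytes or to respond to inflammation in fat. Haptoglobin and ceruloplasmin act on haem iron and copper, lipocalin 2 binds iron carriers of bacteria, Lbp hands bacterial lipopolysaccharide to immune receptors, and Serpina3n inhibits proteases.

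The comparisons rest on arrays of unequal quality. Between 44.6% (HF-DR 5) and 86.3% (t=0 2) of an array's probes gave a Cy5 signal well above background, and the array next to t=0 2 reached 70.9%. Median Cy5 signals lay between 102 and 372. Array t=0 2 gave the highest t=0 value for 6 of the 8 members, against 9.26% of all genes. HF-DR 8 or HF-DR 9 gave the lowest HF-DR value for 7 of the 8 members, against 43.7% of all genes, and these arrays also held transcripts of the seminal vesicle. Arrays HF-AL 5, 7 and 9 had the highest values of Adam7, a gene of the epididymis, the duct beside this fat depot. They are counted below among the arrays that held tract transcripts, though Adam7 and the other genes used to mark them were dim. On t=0 2 the epididymal gene Adam7 stood at 0.97, near the 1.17 of HF-AL 5, but t=0 2 was not set apart with these arrays. The members and the gene lists below are given over all arrays and, where the value moved by over 1.5 times or a call changed, also without the arrays that held tract transcripts (HF-AL 5, 7 and 9, HF-DR 7, 8 and 9 and t=0 6). The arrays were spread over 21 slides, 12 of which held more than 1 array. Nothing in the labels ties animals to shared litters or cages, and p-values measure the spread between the animals sampled.

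The reference table of promoters held 4 of the 8 members (Lcn2, Cp, Saa3 and Serpina3n), and 3 sequences are shown because they hold the letters to which the inducing factors described later are known to bind. They are RefSeq sequences of GRCm38.p6, printed 5′ to 3′ on the strand of the gene, and capitals mark a match to TTGCNNAA (the C/EBP motif, searched on both strands) or to the NF-kB motif (GGGA and CC with any 4 bases between them, likewise). The Lcn2 sequence is chr2:32387740-32387989, minus strand, the 250 bases before the start. The Serpina3n sequence is chr12:104406458-104406645, plus strand, the 188 bases that lie before the annotated gene. The Saa3 sequence is chr7:46715758-46715785, minus strand, 28 bases around a match.
Lcn2: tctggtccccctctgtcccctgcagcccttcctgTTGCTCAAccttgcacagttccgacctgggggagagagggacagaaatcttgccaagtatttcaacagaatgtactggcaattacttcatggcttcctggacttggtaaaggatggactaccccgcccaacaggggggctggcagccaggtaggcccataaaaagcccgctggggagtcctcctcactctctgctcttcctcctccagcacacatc
Serpina3n: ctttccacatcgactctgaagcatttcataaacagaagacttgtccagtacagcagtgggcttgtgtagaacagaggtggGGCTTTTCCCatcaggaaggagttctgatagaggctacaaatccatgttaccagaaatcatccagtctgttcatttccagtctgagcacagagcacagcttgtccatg
Saa3: gtaagtgggaTTATGCAAgatcaaacag
The Lcn2 match to the C/EBP motif lies 216 to 209 bases before the start. That of Saa3 lies 99 to 92 bases before the start of the table's transcript, but inside the annotated gene. The Serpina3n match to the NF-kB motif lies 170 to 161 bases before the start of the table's transcript, and a second match, 43 to 34 bases before it, lies inside the annotated gene and is not shown. Cp, not printed, had 1 match to each of these motifs in 1 of its 2 windows, both inside the annotated gene. The STAT motif TTCNNNGAA, also searched on both strands, had no match in the 250 bases before the start of any of the table's transcripts of the 4 genes. Among all 32851 promoters of the table, in windows of 250 bases, 9.6% held the C/EBP motif, 17.6% the NF-kB motif and 7.0% the STAT motif. A match describes letters and not a site in use.

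Restricted mice had lower transcript levels of Hp, Wfdc21, Lbp and Serpina3n and higher levels of Orm1 than mice with free access to the same diet. Saa3, Lcn2 and Cp did not pass the test. A gene counts as changed where its adjusted p in limma, by Benjamini-Hochberg over all 16499 genes, was under 0.05. By this rule 5 of the 8 members changed between HF-DR and HF-AL, when 64.8% of all genes did, so their number is near the background. Of the 8, 1 rose, where 28.8% of all genes did, and 4 fell, where 35.9% did. A change of at least 2-fold was found in 4 of 8 members and 5.57% of all genes. In 3 of 8 the animals of both groups did not overlap, where 14.5% of all genes had such groups, and in all 3 HF-DR was the lower group, as in 8.19% of all genes. The median difference of the 8 members was -0.11, and that of all genes -0.04. Without the arrays that held tract transcripts 3 members rose (Orm1, Lcn2 and Cp), where 30.7% of all genes did, and 3 fell (Hp, Wfdc21 and Lbp), where 36.1% did. The median difference of the 8 members was then 0.07, and that of all genes -0.03. In whole tissue, fewer cells of a type and less RNA per cell cannot be told apart.

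**Figure D1:**
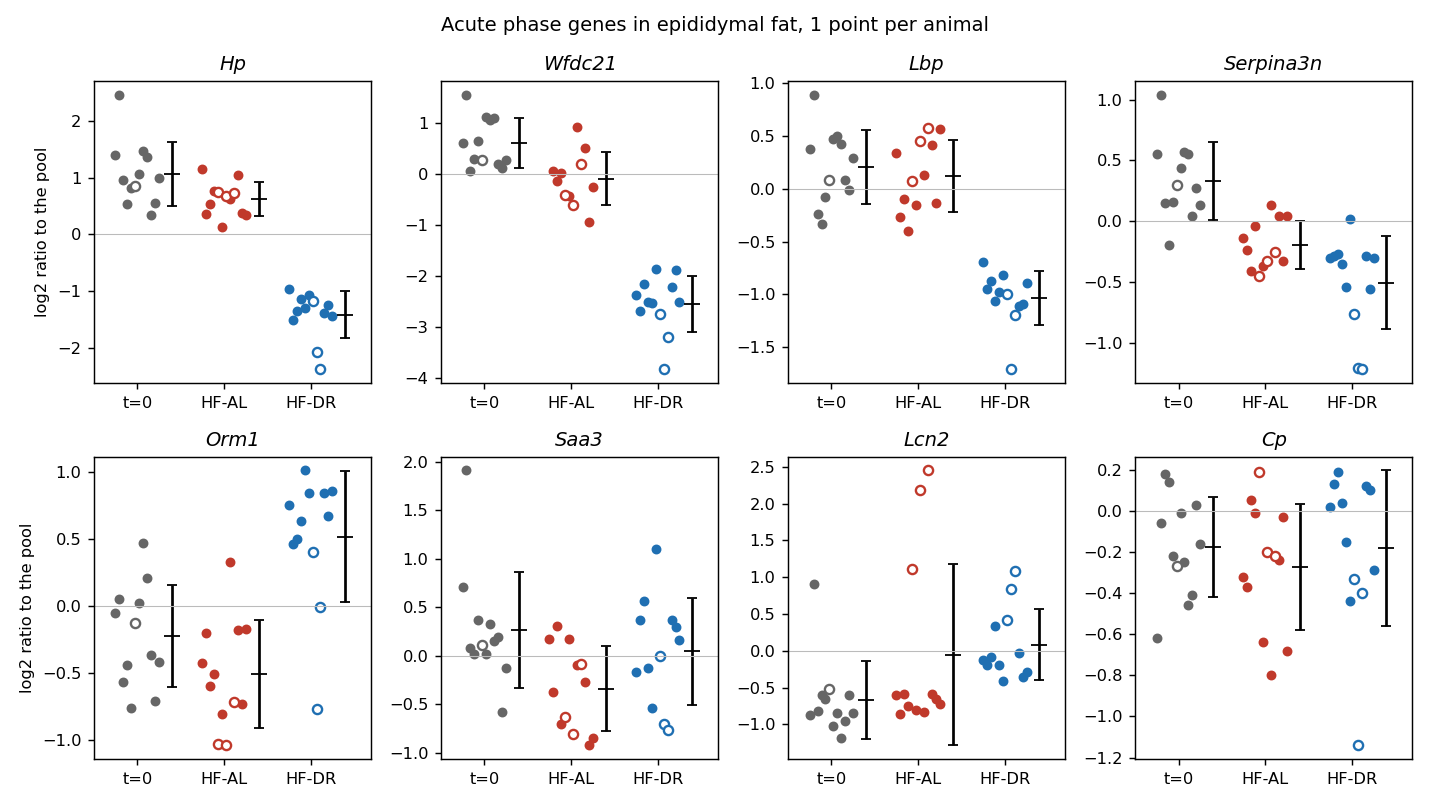
Log2 ratio to the pool (y axis) of 8 acute phase genes in t=0 (grey), HF-AL (red) and HF-DR (blue), 1 point per animal. A bar at the right of each group gives its mean and SD, and open points mark the arrays set apart for transcripts of the male tract. The HF-DR points of Hp, Wfdc21 and Lbp lie below all others, and 3 HF-AL points of Lcn2 lie far above the remaining HF-AL points.

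Hp encodes haptoglobin, which binds free haemoglobin, and its probe lies at chr8:112464460-112464401 (mm8, start and end as the file gives them). Its level ran from 0.35 to 2.46 in t=0 (median 0.97), from 0.13 to 1.15 in HF-AL (median 0.65) and from -2.38 to -0.97 in HF-DR (median -1.32). No HF-DR animal reached the lowest animal of either other group. The difference between HF-DR and HF-AL was -2.04 ± 0.17 (SE, 12 animals per group), or 4.12-fold lower (limma, adjusted p = 8.26e-13). Among the 16499 genes Hp held rank 39 from the most negative difference. On the 3 slides that carried both groups the difference was -2.02 to -1.70, and without the arrays with tract transcripts it was -1.86.

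Wfdc21 encodes a small secreted protein of the whey acidic protein family. Its probe lies at chr11:83568721-83568780 (mm8), and its spot on HF-AL 1 was left out as not uniform or as an outlier, which leaves 11 HF-AL values. The level ran from 0.06 to 1.55 in t=0 (median 0.46), from -0.95 to 0.91 in HF-AL (median -0.13) and from -3.83 to -1.87 in HF-DR (median -2.50). The highest HF-DR animal was thus below the lowest HF-AL animal. The difference of -2.44 ± 0.21 (SE) was 5.43-fold (limma, adjusted p = 1.6e-12), and Wfdc21 held rank 15 from the most negative. It was -2.89 to -1.73 on the 3 slides with both groups and -2.27 without the tract arrays.

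Lbp encodes the lipopolysaccharide binding protein, with a probe at chr2:158019847-158023389 (mm8). Its level ran from -0.33 to 0.89 in t=0 (median 0.19), from -0.40 to 0.58 in HF-AL (median 0.10) and from -1.71 to -0.69 in HF-DR (median -0.99). The HF-DR animals again lay below all animals of the other groups, while t=0 and HF-AL covered nearly the same range. The difference between HF-DR and HF-AL was -1.15 ± 0.13 (SE), or 2.23-fold lower (limma, adjusted p = 4.75e-10). It was -1.44 to -0.81 within the 3 slides and -0.98 without the tract arrays.

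Serpina3n, a secreted inhibitor of serine proteases whose upstream sequence is printed above, has its probe at chr12:104814758-104814817 (mm8). Its level ran from -0.20 to 1.04 in t=0 (median 0.28), from -0.45 to 0.13 in HF-AL (median -0.24) and from -1.22 to 0.02 in HF-DR (median -0.33). Of the 12 HF-DR animals 7 lay within the range of HF-AL and 5 below it, with HF-DR 8 and 9 (-1.21 and -1.22) lowest. The difference was -0.31 ± 0.12 (SE; limma, adjusted p = 0.0262). This call rested on few arrays: without HF-DR 8 or without HF-DR 9 it was lost (adjusted p up to 0.0608), and without all tract arrays the difference was -0.17 (adjusted p = 0.178). With the slide as a block the adjusted p was 0.31, with scaling between arrays it was 0.68, and the difference within slides ran from -0.33 to 0.04.

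Orm1, the member that rose in HF-DR, encodes alpha-1-acid glycoprotein, a carrier of lipophilic molecules in blood. Its probe lies at chr4:62831810-62832417 (mm8). The level ran from -0.76 to 0.47 in t=0 (median -0.25), from -1.04 to 0.33 in HF-AL (median -0.56) and from -0.77 to 1.01 in HF-DR (median 0.65). The groups overlapped through HF-DR 8 (-0.77), HF-DR 9 (-0.01) and the highest HF-AL animal, HF-AL 8 (0.33). The difference between HF-DR and HF-AL was 1.02 ± 0.17 (SE), or 2.03-fold higher (limma, adjusted p = 1.76e-06). It was 0.68 to 1.19 on the 3 slides and 1.10 without the tract arrays. Its paralogs Orm2 and Orm3 rose too, by 1.15 ± 0.16 (adjusted p = 7.76e-08) and 1.19 ± 0.21 (adjusted p = 7.87e-06), and near-identical copies may share signal on these probes. On HF-DR 8 and 9 Orm3 stood at 2.52 and 2.46, far above the 0.07 to 0.65 of the other HF-DR arrays, while Orm2 stood at -0.60 and -0.06 there, its lowest HF-DR values. Without the tract arrays Orm3 differed by 0.74 ± 0.11 (adjusted p = 6.55e-07) and Orm2 by 1.17 ± 0.13 (adjusted p = 4.34e-09).

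Saa3 encodes the serum amyloid A of mouse fat and macrophages. Its probe, at chr7:46580762-46580703 (mm8), is listed in the file with transcripts of Saa1 as well as Saa3, so the signal may come from both. The level ran from -0.58 to 1.91 in t=0 (median 0.13), from -0.92 to 0.31 in HF-AL (median -0.32) and from -0.76 to 1.10 in HF-DR (median 0.08), and all 3 groups overlapped. HF-DR exceeded HF-AL by 0.39 ± 0.21 (SE; 95% interval -0.04 to 0.81; limma, adjusted p = 0.104). Leaving out HF-DR 7, 8 and 9 gave 0.56 (adjusted p = 0.0201), which passes, leaving out all tract arrays gave 0.51 (adjusted p = 0.0541), and leaving out t=0 2 as well gave 0.51 (adjusted p = 0.0165), which passes. That last step took no animal from either group and lowered only the SE, from 0.23 to 0.18, because all 3 groups share 1 estimate of spread. On the 3 slides with both groups the difference was 0.10 to 1.42, with a mean of 0.94. Saa1 itself differed by 0.03 ± 0.12 (adjusted p = 0.82; 0.12 and 0.463 without the tract arrays), and Saa2 did not pass the filter on signal, being well above background on 20 of 36 arrays.

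Cp encodes ceruloplasmin, the copper-carrying ferroxidase of plasma, with a probe at chr3:20181226-20181285 (mm8). The level ran from -0.62 to 0.18 in t=0 (median -0.19), from -0.80 to 0.19 in HF-AL (median -0.23) and from -1.14 to 0.19 in HF-DR (median -0.07). The highest values of the 3 groups were nearly the same, and the lowest HF-DR value came from HF-DR 8. The difference of 0.09 ± 0.12 (SE) did not pass (95% interval -0.16 to 0.34; limma, adjusted p = 0.531). Without the tract arrays it was 0.30 (adjusted p = 0.0217), and on the 3 slides with both groups it was 0.16 to 0.86, with a mean of 0.43.

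Lcn2 encodes lipocalin 2, an iron-carrier-binding protein made by fat cells, neutrophils and epithelia, and its probe lies at chr2:32207770-32207526 (mm8). The signal was low, with a net Cy5 intensity of 42.8 to 2001, and well above background on 10 t=0, 12 HF-AL and 11 HF-DR arrays. In t=0 the level ran from -1.19 to 0.91 (median -0.83), and the highest value was that of t=0 2. In HF-AL it was -0.86 to -0.58 on 9 arrays but 1.11, 2.18 and 2.45 on HF-AL 5, 7 and 9. In HF-DR it ran from -0.41 to 1.08 (median -0.11), the highest being HF-DR 8 (0.84) and HF-DR 9 (1.08).

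The 3 arrays highest in Lcn2 were HF-AL 5, 7 and 9, and the next were HF-DR 9, t=0 2 and HF-DR 8. Adam7, a gene of the epididymal epithelium, stood at 1.17, 2.48 and 3.01 on HF-AL 5, 7 and 9, at 0.97 on t=0 2 and lower on every other array. Svs4, a seminal vesicle gene, stood at 6.30 and 6.03 on HF-DR 8 and 9 and at 0.81 on HF-DR 7, where Adam7 lay between -0.20 and 0.11. On t=0 6 Svs4 stood at -2.91, where the 29 arrays not set apart, t=0 2 among them, ran from -6.08 to -3.90. Adam7 did not pass the filter on signal, being well above background on 18 of 36 arrays. Lcn12 and Defb20, also epididymal, failed it too, with 8 arrays each. They stood highest on HF-AL 7 (1.23 and 1.16) and HF-AL 9 (1.71 and 1.46). On HF-AL 5 they stood at 0.56 and 0.23, against 0.46 and 0.33 on t=0 2. Other epididymal genes on the array were mostly dim as well. Crisp1 was well above background on 3 of 36 arrays, 1 of them HF-AL, and Lcn5 on 2, with 0 of them HF-AL. Lcn9, also epididymal, passed the filter, with means of 0.01 in t=0, -0.01 in HF-AL and 0.29 in HF-DR. It did not pass in any comparison, and a group mean does not single out HF-AL 5, 7 and 9. The part of tract transcripts in the Lcn2 signal was not tested.

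**Figure D2:**
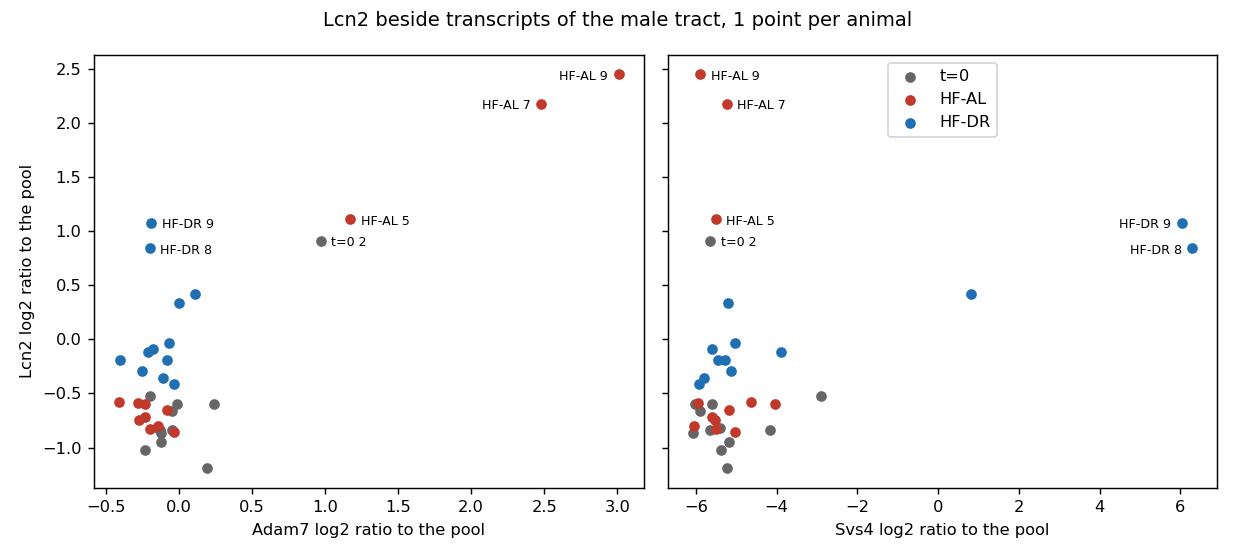
Log2 ratio to the pool of Lcn2 (y axis) against that of Adam7, an epididymal gene (left x axis), and Svs4, a seminal vesicle gene (right x axis), 1 point per animal, grey t=0, red HF-AL and blue HF-DR. The HF-AL animals with Lcn2 at 1.11, 2.18 and 2.45 carry the highest Adam7 values, and the HF-DR animals at 0.84 and 1.08 carry the highest Svs4 values.

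Over all arrays Lcn2 differed between HF-DR and HF-AL by 0.14 ± 0.32 (SE; 95% interval -0.51 to 0.78; limma, adjusted p = 0.725). Without HF-AL 5, 7 and 9, HF-DR 7, 8 and 9 and t=0 6, the restricted animals were higher by 0.56 ± 0.16 (adjusted p = 0.0031), a call that 66.8% of all genes then had. The 9 HF-AL animals left ran from -0.86 to -0.58 and the 9 HF-DR animals left from -0.41 to 0.34, so the groups no longer overlapped, as was so for 27% of all genes, with HF-DR the higher group in 13.8%. Without HF-AL 5, 7 and 9 alone the difference was 0.79 (adjusted p = 0.000359), and without HF-DR 7, 8 and 9 alone it was -0.10 (adjusted p = 0.81). On the 3 slides with both groups it was 0.46 to 0.63. The call of Lcn2 is set by which of these arrays enter.

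**Figure D3:**
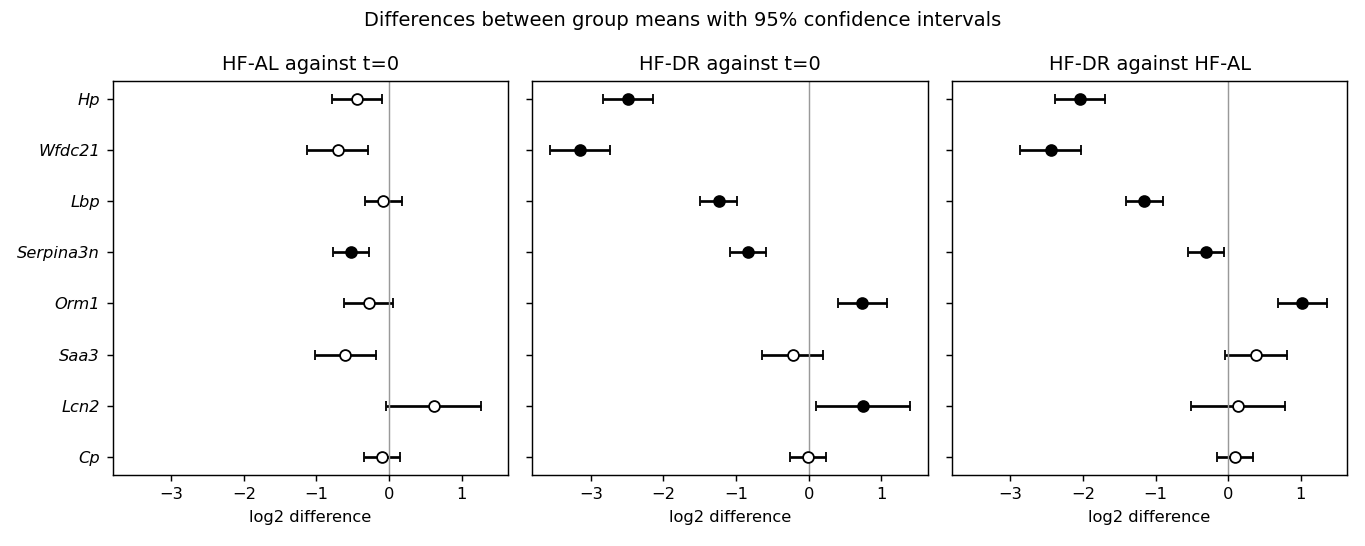
Differences between group means on the log2 scale (x axis) with 95% confidence intervals for 8 acute phase genes in 3 comparisons, filled points passing an adjusted p of 0.05 and open points not. Hp, Wfdc21 and Lbp lie left of 0 and Orm1 right of 0 in both comparisons with HF-DR, and in HF-AL against t=0 Serpina3n alone is filled.

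The comparison of HF-AL with t=0 follows free access to the diet for 12 weeks. Those weeks also passed in age, so feeding time and age cannot be told apart. Serpina3n was lower in HF-AL by 0.53 ± 0.12 (difference -0.53, SE; limma, adjusted p = 0.0285) and was the single member of 8 to pass, where 0.697% of all genes did and 0.23% were lower. The call was close to the threshold. It was lost without t=0 8, without t=0 9 or without HF-AL 2 (adjusted p up to 0.0546), without HF-AL 5, 7 and 9 (adjusted p = 0.108) and with the slide as a block (adjusted p = 0.0988), while the difference was below 0 on 8 of 9 slides with both groups. The call was kept without all tract arrays (-0.48, adjusted p = 0.0182) and with t=0 2 left out as well (-0.41, adjusted p = 0.021). It was also kept without HF-DR 7, 8 and 9 (adjusted p = 0.00238). The median difference of the 8 members was -0.36, against 0.01 for all genes, and 7 of the 8 differences were negative. The share of all genes with a negative difference was not counted. Members varied together among animals, as described below, so these signs are not separate observations. Wfdc21 differed by -0.71 ± 0.21 (adjusted p = 0.0999), Saa3 by -0.60 ± 0.21 (adjusted p = 0.171), Hp by -0.44 ± 0.17 (adjusted p = 0.23), Orm1 by -0.28 ± 0.17 (adjusted p = 0.463), Cp by -0.10 ± 0.12 (adjusted p = 0.796) and Lbp by -0.08 ± 0.13 (adjusted p = 0.838). These 6 differences did not pass over all arrays, though Wfdc21 passed without HF-DR 7, 8 and 9 (-0.71, adjusted p = 0.028) and without HF-AL 8 (-0.81, adjusted p = 0.0434). HF-DR arrays enter this comparison only through the spread shared by the 3 groups, so only the SE of Wfdc21 changed without them, to 0.18. Array t=0 2 supplied the highest t=0 value of Wfdc21, Saa3, Hp and Lbp. Without t=0 2, Saa3 differed by -0.45, Hp by -0.32 and Wfdc21 by -0.62. Without the tract arrays Orm1 differed by -0.135, Cp by -0.17 and Lbp by -0.17, none of which passed. Lcn2 differed by 0.61 ± 0.32 (adjusted p = 0.401), by -0.03 without the tract arrays and by 0.13 with t=0 2 left out as well.

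HF-DR was also set against t=0, the state before the 12 weeks, and any 2 of the 3 comparisons share the animals of a group. Restriction and 12 weeks of age cannot be told apart in this comparison. Here 6 of the 8 members changed, where 61.8% of all genes did, 2 of them up, where 28.8% of all genes were, and 4 down, where 33% were. A change of at least 2-fold was found in 3 of 8 members and 5.59% of all genes. Groups did not overlap for 3 of 8 members, all lower in HF-DR, where 16.6% of all genes had such groups and 9.06% had HF-DR as the lower one. Hp was lower by 2.48 on the log2 scale (difference -2.48 ± 0.17, or 5.60-fold; adjusted p = 4.71e-15), Wfdc21 differed by -3.15 ± 0.20 (8.86-fold lower; adjusted p = 1.28e-15) and Lbp by -1.24 ± 0.13 (adjusted p = 9.37e-11). For these the order of group means was HF-DR lowest, then HF-AL and t=0, with the upper neighbours not differing past the threshold. Serpina3n differed by -0.84 ± 0.12 (adjusted p = 2.34e-07), which places its means in the order t=0, HF-AL, HF-DR from above, each step past the threshold over all arrays. Orm1 was higher than at t=0 by 0.74 ± 0.17 (adjusted p = 0.000221). Lcn2 was higher by 0.75 ± 0.32 (adjusted p = 0.0414). The call was lost without any 1 of 12 of the 24 arrays (adjusted p up to 0.0757) and without HF-DR 7, 8 and 9 (0.51, adjusted p = 0.185). It was kept at 0.53 without all tract arrays (adjusted p = 0.00332), when 66.4% of all genes passed. With t=0 2 left out as well the difference was 0.69. Saa3 (-0.22 ± 0.21, adjusted p = 0.375) and Cp (-0.01 ± 0.12, adjusted p = 0.975) did not pass. Without the tract arrays Saa3 differed by -0.05 and Cp by 0.13, again without passing.

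Members also varied together among animals of a group. Each animal's deviation from its own group mean was compared between members over 36 arrays, or 35 for Wfdc21. Such correlations describe arrays that share labelling and RNA quality. Orm1 and Wfdc21, which moved in opposite directions between HF-DR and HF-AL, correlated at r = 0.79 (Spearman 0.75; r = 0.69 without the 2 arrays farthest out), and within t=0, HF-AL and HF-DR at 0.73, 0.78 and 0.85. Serpina3n correlated with Wfdc21 at 0.78, with Hp at 0.76 and with Orm1 at 0.75. Hp and Lbp correlated at 0.66. Over all arrays Cp correlated with no other member beyond 0.23. Its r with Orm1 was -0.42 in t=0, -0.64 in HF-AL and 0.72 in HF-DR. Its r with Wfdc21 was -0.19, -0.42 and 0.73. The HF-DR values lean on HF-DR 8, whose deviations were the lowest of HF-DR in Cp (-0.96), Orm1 (-1.29) and Wfdc21 (-1.29). Over all groups, without HF-DR 8 and HF-AL 8, the r of Cp was -0.24 with Orm1 and -0.01 with Wfdc21. Values within HF-DR without HF-DR 8 were not computed, so a difference in sign between the groups is not shown. Lcn2 correlated with Orm1 at -0.46, and within the groups at 0.02, -0.60 and -0.80. Serpina3n and Hp correlated at 0.92, 0.30 and 0.81 within the groups, and Hp and Lbp at 0.84, 0.38 and 0.71. HF-DR 8 and HF-DR 9 lay farthest from the HF-DR mean in Orm1, Serpina3n, Hp and Lcn2. The r values within HF-DR were not computed without them. Without t=0 2 the r of Saa3 with Hp was 0.45 in place of 0.62, while that of Orm1 with Wfdc21 was 0.80.

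**Figure D4:**
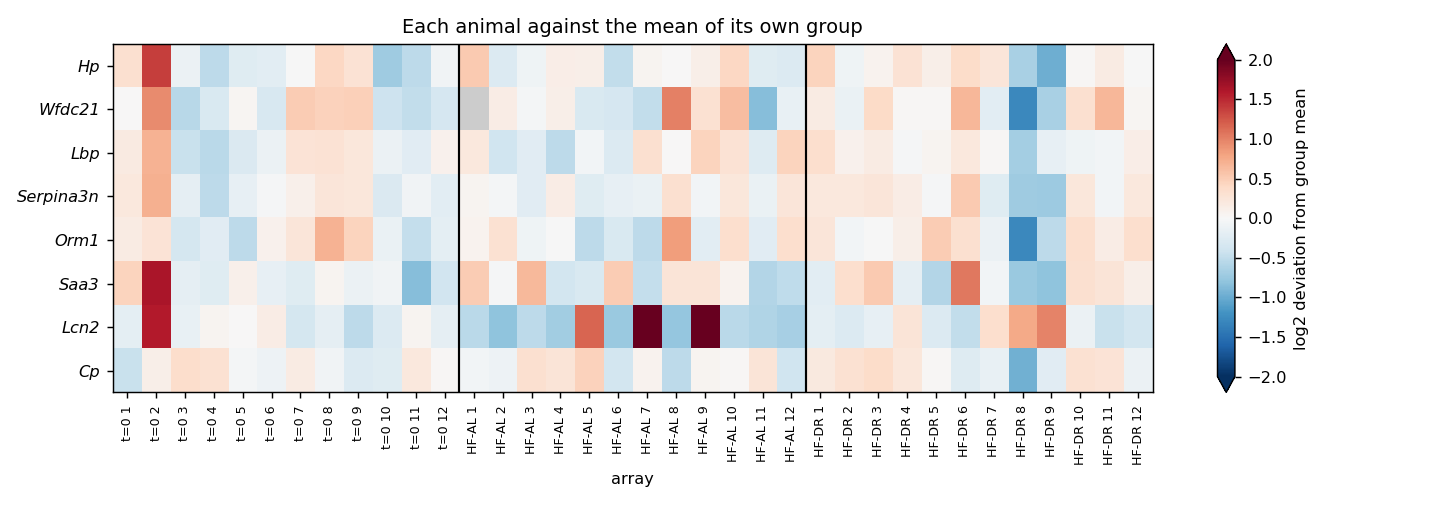
Deviation of each animal from the mean of its own group, on the log2 scale (colour, red above and blue below, from -2 to 2), for 8 acute phase genes (rows) on 36 arrays (columns), with black lines between groups and grey for the Wfdc21 spot left out on HF-AL 1. Array t=0 2 is above its group mean in most rows, HF-DR 8 and 9 are below it in all rows but Lcn2, and HF-AL 7 and 9 are far above it in the Lcn2 row.

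Among all other genes, those closest to each member in these deviations were found over the same arrays. Of the 24 genes, 3 per member, 5 carry only sequence identifiers in the file and are not named here (1 each for Saa3, Hp and Lbp and 2 for Cp, the closest at r = 0.82). Saa3 followed Saa1 (r = 0.93) and the complement gene C4b (0.72), Saa1 being a relative that its probe may also detect. Orm1 followed Orm2 (0.92), Tstd3 (0.92) and Ncan (0.86). Lcn2 followed Plekhb1, 0610040J01Rik and Slc30a2 (0.97 each). Between HF-DR and HF-AL these differed by 0.03, -0.37 and -0.37, none past the threshold. Serpina3n followed Cav1 (0.85), Tspan17 (0.84) and Adamts5 (0.83), and Wfdc21 followed Adamts2 (0.84), Orm1 (0.79) and Col5a1 (0.79). Hp followed Serpina3n (0.76) and Hspb2 (0.74), Lbp followed Kcnj15 and Pcbd1 (0.75 each), and Cp followed Aco1 (0.81), the iron-sensing cytosolic aconitase. Without the 2 arrays farthest out for a member, r over the 24 genes ran from 0.59 (Hp with Hspb2) to 0.95 (Lcn2 with Slc30a2). For Lcn2 those 2 arrays were HF-AL 9 and HF-AL 7, both set apart for tract transcripts.

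Other genes of the acute phase system moved unevenly between HF-DR and HF-AL. Of 20 further positive acute phase genes, whose proteins rise in inflammation, 5 rose and 8 fell (median -0.02, and 0.13 with 7 and 8 called without the tract arrays), where 28.8% of all genes rose and 35.9% fell, the shares against which the counts of all lists below stand. Mt2, a metal-binding metallothionein, differed by -1.95 ± 0.16 (adjusted p = 4.16e-13) and Lrg1, a leucine-rich glycoprotein, by -1.06 ± 0.12 (adjusted p = 1.19e-09). Among those that rose were Itih4 (0.47, limma, adjusted p = 3.94e-08) and Orm2 and Orm3 with the values above. Of 5 negative acute phase genes, whose proteins fall in inflammation, 3 rose and 0 fell (median 0.55). These were Trf, which carries iron (0.89 ± 0.11, adjusted p = 6.06e-09), Igfals, a binding partner of insulin-like growth factors (0.82 ± 0.11, adjusted p = 8.93e-08) and Alb, albumin (0.55 ± 0.12, adjusted p = 0.000134). Of 17 complement genes, 14 fell and 0 rose (median -0.73), among them C4b (-2.56 ± 0.14, adjusted p = 5.25e-18) and C1s1 (-1.38 ± 0.09, adjusted p = 2.57e-16).

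**Figure D5:**
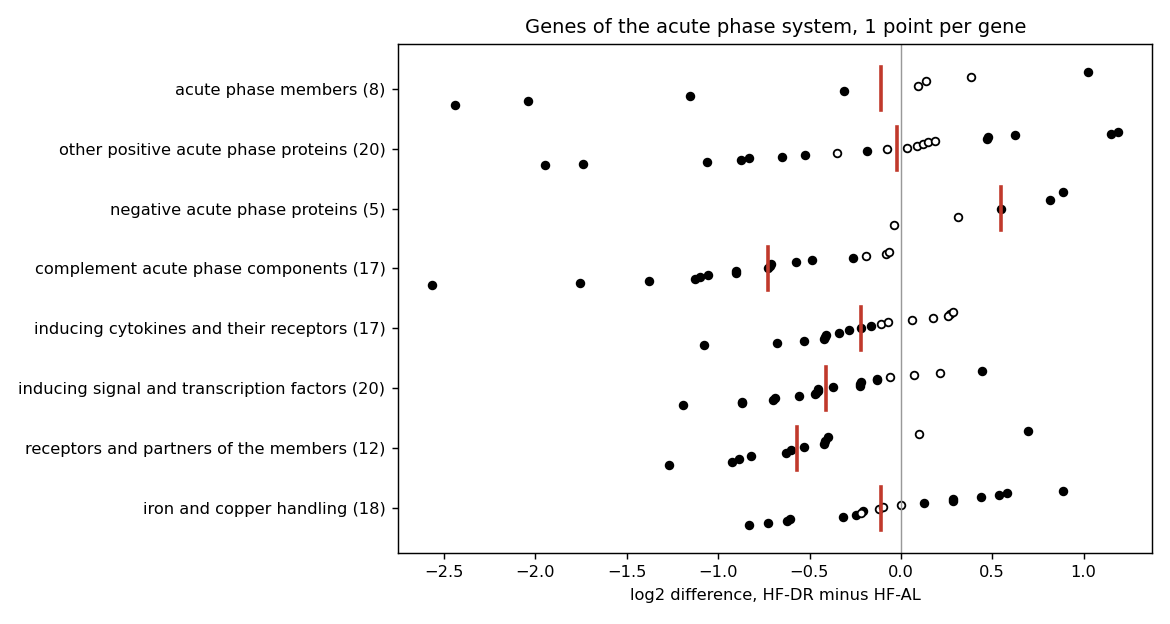
Differences between HF-DR and HF-AL on the log2 scale (x axis) for 8 lists of the acute phase system, 1 point per gene with the number of genes tested in brackets, filled points passing an adjusted p of 0.05, open points not and red lines the list medians. The complement list lies left of 0 with a median of -0.73, and the 8 acute phase members are spread from -2.44 to 1.02.

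Genes of the signalling that controls acute phase induction, activators and inhibitors alike, were mostly lower in restricted mice. Of 20 signal and transcription factor genes 1 rose and 16 fell (median -0.41). Those that fell include Tnfaip3, an inhibitor of NF-kB signalling (-0.87 ± 0.09, adjusted p = 2.22e-10), and Nfkbia, which holds NF-kB in the cytoplasm (-0.45 ± 0.09, adjusted p = 2.64e-05). Cebpb, which binds the motif marked in the Lcn2 and Saa3 sequences, rose by 0.44 ± 0.14 (adjusted p = 0.00598), and Cebpd, which binds the same letters, fell by 1.19 on the log2 scale (difference -1.19 ± 0.15, adjusted p = 1.36e-08). Stat3 differed by -0.56 ± 0.07 (adjusted p = 3.34e-08), Nfkb1, a subunit of NF-kB, by -0.47 ± 0.04 (adjusted p = 9.6e-13), and Socs3, the feedback inhibitor of STAT3 signalling, by -0.06 ± 0.09 (adjusted p = 0.573; 0.07 and 0.35 without the tract arrays). Of 17 cytokine and receptor genes 1 rose and 10 fell (median -0.22). Myd88 rose by 0.27 ± 0.05 (limma, adjusted p = 1.26e-05), and Ifngr1 differed by -1.08 ± 0.09 (adjusted p = 8.08e-13). Il1b differed by -0.07 ± 0.08 (adjusted p = 0.458; -0.18 and 0.0934 without the tract arrays), and Il6 and Tnf did not pass the filter, being well above background on 2 and 6 of 36 arrays.

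Receptors and partners of the members were also mostly lower. Of 12 genes 1 rose and 10 fell (median -0.57). Cd163, the receptor of macrophages for haptoglobin bound to haemoglobin, differed by -0.93 ± 0.12 (adjusted p = 1.13e-08) without overlap of the groups, in the same direction as Hp. Slc22a17, a receptor of lipocalin 2, differed by -0.40 ± 0.05 (adjusted p = 3.74e-08), and Tlr4, to which Lbp passes lipopolysaccharide through its partners, by -0.53 ± 0.07 (adjusted p = 1.98e-08). Scarb1, a receptor of lipoproteins, which carry serum amyloid A, rose by 0.70 ± 0.10 (adjusted p = 1.69e-07). Of 18 iron and copper genes 7 rose and 7 fell (median -0.11). Slc40a1, the iron exporter that works with ceruloplasmin, differed by -0.73 ± 0.14 (adjusted p = 1.86e-05), and Tfrc, the transferrin receptor, by 0.54 ± 0.08 (adjusted p = 5.69e-07). In HF-AL against t=0 none of the genes on these 7 lists passed in limma, where 0 to 6 genes of each list had an unadjusted p under 0.05. Without the tract arrays Rbp4, the plasma carrier of retinol, rose and the kinase gene Tyk2 fell there. Between HF-DR and HF-AL leaving these arrays out ended the calls of C7, Tnfrsf1a, Lrp2 and Ftl1 and added Serpina1d, Serpina1e, Rbp4, Bcl3 and Heph.

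Cell type markers moved in the same comparison, again where 28.8% of all genes rose and 35.9% fell. Of 16 markers of mature adipocytes 10 fell and 1 rose between HF-DR and HF-AL (median -0.53), of 16 fibroblast markers 14 fell (median -0.82) and of 20 macrophage markers 16 fell and 1 rose (median -0.61). The median log2 ratio of the adipocyte list ran from -0.25 to 0.55 over HF-AL animals and from -1.29 to -0.05 over HF-DR animals, and that of the macrophage list from -0.17 to 0.27 and from -1.27 to -0.37. The low ends were those of HF-DR 8 and 9, at -1.29 and -1.09 for adipocyte and -1.27 and -0.97 for macrophage markers. The other 10 HF-DR animals ran from -0.31 to -0.05 and from -0.69 to -0.37, still without overlap with HF-AL for macrophage markers. With all tract arrays left out, the adipocyte list ran from 0 to 0.55 over HF-AL animals and from -0.31 to -0.05 over HF-DR animals. These ranges did not overlap either. Without the tract arrays 3 adipocyte markers rose and 9 fell (median -0.45), 15 fibroblast markers fell (median -0.77) and 1 macrophage marker rose and 15 fell (median -0.56). On each array 16 of 16 adipocyte, 16 of 16 fibroblast and at least 19 of 20 macrophage markers were well above background. Of 13 mesothelial markers 9 fell (median -0.45), and 10 without the tract arrays (median -0.41). Of 12 hepatocyte markers on the array 5 passed the filter, of which 3 rose and 1 fell (median 0.13). Those that rose were Cyp2e1, a cytochrome P450 enzyme (1.12 ± 0.18, adjusted p = 1.65e-06), Alb with the values above and Hpd (0.13 ± 0.05, adjusted p = 0.0191). The 7 that did not pass the filter were near background on most arrays, being well above it on 2 to 5 of 36, Apoa1 and Ttr on 2 and Fgb on 3. The part of any of these cell types in the members' differences was not tested.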

How the data were processed

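Agilent 2-colour arrays of 36 animals were used. The authors deposited intensity values per spot, and the submitters' processing notes name Agilent Feature Extraction (version 9.5.3.1). The deposited series matrix was an alternative: its log2 values for 22510 probes follow the Cy5 signal (r of 0.989 to 0.997) and not the ratio, with medians of 9.26 to 9.29 per array, and no source used here says how they were centred. Probe positions are on mm8 per the file headers, and probes were named through RefSeq (GRCm38.p6). The processed intensity values, deposited with background and dye correction, were another alternative.

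Background was corrected with normexp (offset 50) on mean and local background signals, fitted without 84 specks with a net signal under -50. Ratios of Cy5 to Cy3 were normalised by loess with 4 iterations. Non-uniform and outlying spots were left out. A gene was tested if some group had a probe with Cy5 well above background on 9 or more of its arrays. The brightest probe of a gene was used. All animals had 1 dye orientation, so a dye effect cancels between groups. limma 3.58.1 (R 4.3.3, with the package data.table in version 1.17.8) fitted 1 model over 36 arrays, tested on simulated data first, two-sided, with a threshold of 0.05. The number of arrays limits the precision. Genes named beside the 8 members came from a fixed set and from up to 2 genes in each direction with the smallest adjusted p of each list. Not all of these are named. Those of the 3 genes most like each member that have a gene symbol were named as well. Nfkbia, Hpd and genes whose call changed without the tract arrays were named after their values were seen. Adam7, Svs4 and the other tract genes named, Lcn9 among them, and liver genes named as near background were picked with their values in view. The members, lists and arrays set apart were chosen with earlier results of these data known.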

Additional observations from a re-analysis of the deposited data

How the results depend on the processing

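In HF-AL against t=0 the count of changed genes, 115 over all arrays, was 211 with the processed signals, 1133 with scaling between arrays, 71 with no filter on dim probes, 197 without the tract arrays, 305 with the 2 groups alone, 176 without the tract arrays and t=0 2, 68 without HF-AL 5, 7 and 9 and 378 without HF-DR 7, 8 and 9. Its share of higher genes was 67% and became 83.5% with normexp on all spots, 45% with the processed signals, 44.1% with the series matrix and 52.7% with scaling. Members changed there were 1, and 0 with normexp on all spots, with the slide as a block, with the replicate block and without HF-AL 5, 7 and 9, 2 without HF-DR 7, 8 and 9, and 4 with scaling. Leaving out 1 array gave 62 to 187 genes and 0 to 2 members. Leaving out HF-DR arrays changes HF-AL against t=0 only through the spread shared by the 3 groups. The counts against HF-DR moved by less than 1.5 times: leaving out 1 array gave 10450 to 10949 genes and 4 to 5 members against HF-AL, and 9920 to 10449 genes and 5 to 6 members against t=0.

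Directions that turned were all of members that did not pass. Lcn2 in HF-DR against HF-AL was -0.009 with normexp on all spots, -0.28 with the slide as a block and -0.10 without HF-DR 7, 8 and 9, and in HF-AL against t=0 -0.031 without the tract arrays and -0.044 without HF-AL 5, 7 and 9. Cp in HF-DR against t=0 was 0.014 with processed signals, 0.11 with the series matrix, 0.13 with scaling, 0.14 with the slide as a block, 0.13 without the tract arrays, 0.15 with t=0 2 left out as well, 0.14 without HF-DR 7, 8 and 9 and 0.10 within slides, and leaving out 1 array gave -0.045 to 0.082. Saa3 there was 0.11 without the tract arrays and t=0 2, and Lbp in HF-AL against t=0 was 0.01 within slides. Lcn2 in HF-DR against t=0 no longer passed with the slide as a block (adjusted p = 0.266) or with no filter on dim probes (0.064), and Serpina3n in HF-AL against t=0 with normexp on all spots (0.0692). With scaling, Hp, Wfdc21 and Saa3 passed in HF-AL against t=0 (adjusted p = 0.0214, 0.00598 and 0.0414). Causes were not tested. Hp, Wfdc21, Lbp and Orm1 kept their direction and call between HF-DR and both other groups under every alternative fitted. The labels do not say whether the replicate numbers pair the animals, and correlations cannot settle it. Same-numbered deviations correlated between -0.46 and 0.40. They were above 0.1 in 9 of 12 pairs of HF-AL and HF-DR, 2 of 12 of t=0 and HF-AL and 0 of 12 of t=0 and HF-DR. Of 36 arrays, 3 correlated best with their own number. With the replicate block the counts were 10648 for HF-DR against HF-AL, 126 for HF-AL against t=0 and 10216 for HF-DR against t=0, and Serpina3n in HF-AL against t=0 had an adjusted p of 0.0517. All arrays were scanned on 1 day, so scan date as a block was not run, and counts within slides were not computed. Lcn2 is near background on some arrays, which limits its values. The settings without t=0 2, without HF-AL 5, 7 and 9 alone and without HF-DR 7, 8 and 9 alone were chosen after seeing the data. So were the gene lists and marker ranges without the tract arrays and the marker ranges without HF-DR 8 and 9.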

Other observations

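Neutrophils carry calprotectin, made of S100a8 and S100a9, beside Lcn2 and Hp. S100a9 was higher in HF-DR than in HF-AL by 2.25 ± 0.18 (SE; limma, adjusted p = 3.03e-13). Its levels of 0.28 to 1.70 and -1.68 to -0.60 did not overlap, as was so in either direction for 14.5% of all genes. S100a8 was higher by 0.80 ± 0.10 (adjusted p = 1.45e-08). Of 7 neutrophil markers tested these 2 rose and 2 fell, where 28.8% of all genes rose and 35.9% fell. Those that fell were Mmp9 (-0.63, limma, adjusted p = 2.23e-08) and Prtn3 (-0.20, adjusted p = 0.00163). The granule genes Ltf, Camp and Elane were well above background on at most 6, 8 and 0 of 36 arrays. The part of neutrophils in the levels of Lcn2 and Hp was not tested. Of 12 endothelial markers 2 rose and 6 fell (median -0.21), and without the arrays that held tract transcripts 2 rose and 5 fell (median -0.12).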
